A study of Mus musculus with 30 samples.

Results

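DNA replication machinery is described here as 53 genes, chosen by name from the count files, of 46113 genes counted in all. They were placed in 14 role groups that follow the order of events at a replication origin, from the origin recognition complex to chromatin assembly and fork protection. For 52 of the 53 symbols the entry name in the files was the symbol itself. Cdc45 was listed as a pair of copies, and its reads were summed over them. Whole genes lie, in build mm10, at chr4:108575620-108616030 (Orc1), chr11:98907699-98923942 (Cdc6), chr8:122568015-122573130 (Cdt1), chr13:24751845-24761937 (Gmnn), chr8:75109508-75128439 (Mcm5), chr2:4990724-5015567 (Mcm10), chr5:8396969-8422723 (Dbf4), chr2:132249286-132253180 (Pcna) and chr8:83955694-83970195 (Asf1b).

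Each of the 30 RNA-seq libraries was made from 100 bone marrow cells of mice of strain C57BL/6, at an age between 8 and 10 weeks. In the first experiment, haematopoietic stem cells (HSCs, gated as lineage-negative CD150+ CD48- EPCR+) were taken from untreated animals (n = 4), or at day 6 (n = 4) or day 10 (n = 6) of recovery from 5-fluorouracil (5-FU), which blocks thymidylate synthesis. HSCs of untreated mice cultured for 1 day (n = 4) were set beside uncultured HSCs (n = 4). The last set was taken 10 days after 5-FU and held CD48- HSCs (n = 4) and CD48+ haematopoietic progenitor cells (HPCs, lineage-negative CD150+ CD48+ EPCR+, n = 4). All groups are wild-type sorted populations defined by surface markers alone, and the labels give neither the 5-FU dose nor the culture medium. Nothing in the labels says that replicates came from separate mice, so p-values measure the spread between these libraries, which may be in part technical.

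Before a cell copies its DNA, the origin recognition complex (ORC) marks origins and, with Cdc6 and Cdt1, loads the ring of Mcm2 to Mcm7 onto DNA, a step called licensing. Geminin (Gmnn) binds Cdt1 and blocks loading once replication has begun. The kinase Cdc7 with its activator Dbf4 then helps to turn the loaded ring, with Cdc45 and the GINS proteins, into the active CMG helicase, after which the polymerases, the sliding clamp Pcna and its loader, the Rfc complex, copy the opened strands. Most HSCs of an unperturbed adult marrow are quiescent, and they enter the cell cycle after 5-FU has depleted dividing cells or when placed in culture.

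Libraries held 5208722 to 12243208 exon reads, and members had between 15 and 6348 reads in a library. All 10 HSC markers checked (such as Procr, Mecom and Hlf) were detected in every library. Their summed level was 3641 to 4013 CPM (reads of a gene scaled to the size of its library) in untreated HSCs, 2448 to 2611 at day 6, 1778 to 2083 after culture, 3111 to 3792 in CD48- HSCs and 1711 to 2196 in CD48+ HPCs. Markers of other cells stood high in some libraries. Summed erythroid markers were 2426 to 6370 CPM in untreated HSCs against 315.1 to 442.5 CPM at day 6, and reached 9476 CPM in CD48- HSC replicate 3 and 2987 and 4685 CPM in uncultured replicates 1 and 3. Summed macrophage markers stood at 600.2 CPM in day 6 replicate 1 and 1289 CPM in CD48+ HPC replicate 3. Of 11 erythroid markers, 10 were detected in every untreated library and 5 in every day 6 and every cultured library, where Hba-a2 and Slc4a1 were at 0 throughout. Of 10 macrophage markers, all were detected in every library of the other groups, while in cultured HSCs Adgre1, C1qa, C1qb, Vcam1 and Cd5l were at 0. Of reads on genes with an exon, introns held 63.7 to 66.7% in untreated and 65.4 to 67.6% in uncultured HSCs, against 56.2 to 58.0% at day 6, 57.6 to 62.1% at day 10 and 56.2 to 56.5% after culture. Granulocyte markers summed to 2295, 98.3, 75.0 and 1488 CPM in uncultured replicates 1 to 4, against 8.69 to 14.1 CPM after culture. The part of these differences in the results below was not tested. Each count is also given without 6 libraries in which markers of another cell type exceeded 3 times the median of the group's other libraries. All 4 uncultured libraries exceeded it, and only the 2 with the highest sums (replicates 1 and 3) were left out, so replicate 4 with its granulocyte reads and replicate 2, with 473.2 CPM of megakaryocyte markers against 83.4 to 114.3 CPM in the others, stayed in.

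Promoter sequence of members is shown first, as a description. Whether promoter words go with the changes below was not tested. Windows of 300 bases (250 before to 50 after a gene's start, RefSeq, build GRCm38.p6) matched 44 of the 53 genes, all but Gmnn, Mcm4, Gins1, Gins2, Gins4, Prim2, Pole, Rfc2 and Tipin. They were searched on both strands for E2F words (TTTCCCGC, TTTCGCGC, TTTGCCGC and TTTGGCGC), for the CHR (TTTGAA and TTCGAA) and for CCAAT. An E2F word was found for 17 of the 44 genes (38.6%), against 2.61% of 27025 genes with a window and 4.66% of the 10408 whose mean level was at least 1 CPM. A CHR word was found for 10 of 44 (22.7%), against 21.7% of all genes and 17.0% of those with a mean of at least 1 CPM. CCAAT was found for 25 of 44 (56.8%), against 41.1% and 43.2%. E2F words overlapped one another at Mcm5 and Mcm6, and a CCAAT word at Mcm7. A word is only a match of letters, not a bound site.

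The 170 bases before the start used in the RefSeq promoter table follow for 5 genes whose mRNA rose at day 6 and for Orc3, whose mRNA did not pass the test in any comparison. These stretches were picked from the 17 genes with an E2F word in their window. Each reads 5′ to 3′ on the gene's strand, and capitals mark E2F words or, for a word on the opposite strand, its reverse complement. They lie at chr8:75109339-75109508 (+) for Mcm5, chr1:128359706-128359875 (-) for Mcm6, chr11:98907981-98908150 (+) for Cdc6, chrX:93632156-93632325 (-) for Pola1, chr4:108579284-108579453 (+) for Orc1 and chr4:34614943-34615112 (-) for Orc3. The table takes one start per window, and those of Cdc6 and Orc1 lie inside the whole-gene spans given above, so that these 2 stretches fall within the annotated gene. The stretch of Pola1 overlaps its gene in part, at chrX:93304766-93632219.
Mcm5: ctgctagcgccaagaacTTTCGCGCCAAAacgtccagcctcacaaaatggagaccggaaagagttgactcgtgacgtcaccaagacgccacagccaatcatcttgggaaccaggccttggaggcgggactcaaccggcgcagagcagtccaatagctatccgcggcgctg
Mcm6: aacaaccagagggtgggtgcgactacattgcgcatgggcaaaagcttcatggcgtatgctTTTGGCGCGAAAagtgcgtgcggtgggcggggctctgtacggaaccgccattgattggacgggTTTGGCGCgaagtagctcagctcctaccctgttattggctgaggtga
Cdc6: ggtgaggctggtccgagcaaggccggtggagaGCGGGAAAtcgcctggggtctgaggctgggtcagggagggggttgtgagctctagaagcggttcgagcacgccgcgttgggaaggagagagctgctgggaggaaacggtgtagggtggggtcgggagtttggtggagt
Pola1: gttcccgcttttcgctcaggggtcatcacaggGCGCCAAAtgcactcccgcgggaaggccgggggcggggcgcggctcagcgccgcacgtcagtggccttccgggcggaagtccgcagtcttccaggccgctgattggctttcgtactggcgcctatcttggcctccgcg
Orc1: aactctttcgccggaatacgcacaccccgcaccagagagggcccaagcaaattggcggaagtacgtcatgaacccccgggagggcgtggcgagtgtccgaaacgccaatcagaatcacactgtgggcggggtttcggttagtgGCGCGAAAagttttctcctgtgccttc
Orc3: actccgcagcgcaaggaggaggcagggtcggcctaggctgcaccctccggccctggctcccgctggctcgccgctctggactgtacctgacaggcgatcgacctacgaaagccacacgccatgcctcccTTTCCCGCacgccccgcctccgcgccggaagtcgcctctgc
The stretch of Orc3 also holds an E2F word, TTTCCCGC, 41 bases before the start, while the windows of Orc4 and Orc5 hold none. The windows of Mcm10, Cdc45, Mcm2, Pcna and Dbf4, among other genes that rose at day 6, hold no E2F word either.

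Across the 7 groups the 53 genes together were lowest in uncultured HSCs, untreated HSCs and the day 10 CD48- HSCs of the CD48 experiment, and highest after culture. The groups come from separate experiments. In this order, and in the highest group of each gene below, group and experiment cannot be told apart, and no test was made. Their summed level was 2966, 3143, 2719 and 2693 CPM in the 4 untreated libraries, 6156, 7419, 6420 and 7785 CPM at day 6, and 3440 to 4864 CPM over the 6 libraries of day 10. It was 2705, 2441, 3124 and 2733 CPM in uncultured and 8165, 7995, 8310 and 8174 CPM in cultured HSCs. CD48- HSCs held 2577, 3549, 2168 and 3206 CPM and CD48+ HPCs 6769, 5497, 5550 and 5793 CPM. Within each experiment the high and the low groups did not overlap. The highest group mean was that of cultured HSCs for 45 genes and that of day 6 HSCs for 5 (Mcm6, Cdc7, Pold3, Rpa3 and Dna2), and the exceptions were Orc3, Orc4 and Orc5. As each library is a pool of cells, more cells that express a gene and more mRNA per cell cannot be told apart.

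**Figure D1:**
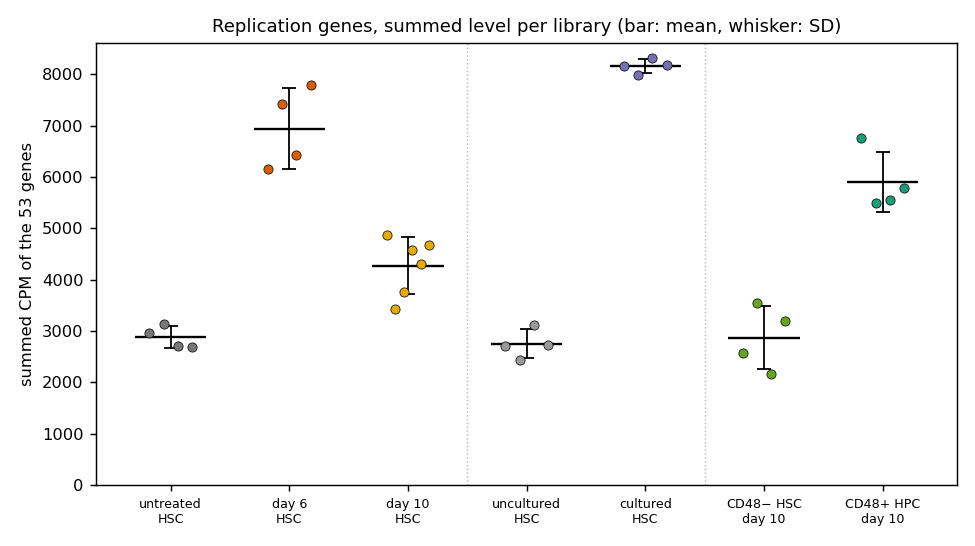
Summed CPM of the 53 replication genes (vertical axis) in each of the 30 libraries (points), by group, with the mean (bar) and SD (whisker). Dotted lines part the 5-FU, culture and CD48 experiments; cultured HSCs sit between 7995 and 8310 CPM and untreated HSCs between 2693 and 3143 CPM.

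Per kilobase of exon, the levels within a complex were uneven. In untreated HSCs the MCM subunits ran from 29.99 CPM per kb (Mcm4) to 76.7 (Mcm3), a 2.56-fold span, and in cultured HSCs from 85.2 (Mcm4) to 183.9 (Mcm5), a 2.16-fold span. ORC subunits ran from 2.74 (Orc1) to 15.6 CPM per kb (Orc3) in untreated HSCs, a 5.70-fold span, and from 7.09 (Orc1) to 27.5 (Orc6) in cultured HSCs, a 3.87-fold span. Orc1 was thus the lowest ORC subunit per length in both. Among the licensing genes, Cdt1 was the highest and Cdc6 the lowest per length in every group.

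At day 6 after 5-FU, 50 of the 53 genes were higher than in untreated HSCs and none was lower. The 3 that did not pass were Orc3, Orc4 and Orc5. Of all 12886 genes tested, 25.7% were called higher and 25.7% lower (adjusted p under 0.05, edgeR's quasi-likelihood test with Benjamini-Hochberg adjustment over all tested genes, here and below). The rises were at least 2-fold for 41 members, against 6.81% of all genes, and the day 6 and untreated libraries did not overlap for 49 (23.9% of all genes). The median log2 change of the members was 1.25, against -0.04 over all tested genes, and by role it was 0.52 for ORC, 1.93 for the licensing factors and geminin, 1.29 for the MCM ring, 1.59 for the CMG partners and Mcm10, and 1.66 for fork protection and cohesion establishment. CPM are given with their SD and log2 changes with their SE.

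The ORC split into genes that rose and genes that did not. Orc1, the largest subunit, stood at 16.3, 12.9, 9.45 and 8.74 CPM in the untreated libraries and 15.3, 25.7, 23.2 and 25.03 CPM at day 6. The day 6 library at the low end lay inside the untreated range, and the log2 change was 0.91 ± 0.23 (adjusted p = 0.00349). Orc6, a subunit that helps to close the MCM ring on DNA, rose by 1.25 ± 0.17 and Orc2 by 0.93 ± 0.14 on the log2 scale. Orc4, one of the core ATPase-fold subunits, read 32.7, 45.3, 45.8 and 44.6 CPM untreated and 39.7, 47.3, 45.01 and 44.2 CPM at day 6. These ranges overlapped, with a log2 difference of 0.07 ± 0.11 (adjusted p = 0.618). Orc3 stood at 101 ± 4.18 and 102 ± 6.94 CPM, a log2 difference of 0.01 ± 0.07, and Orc5 at 20.3 ± 2.18 and 22.2 ± 2.71 CPM, a log2 difference of 0.13 ± 0.14. For both the adjusted p was above the threshold (0.917 and 0.438).

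**Figure D2:**
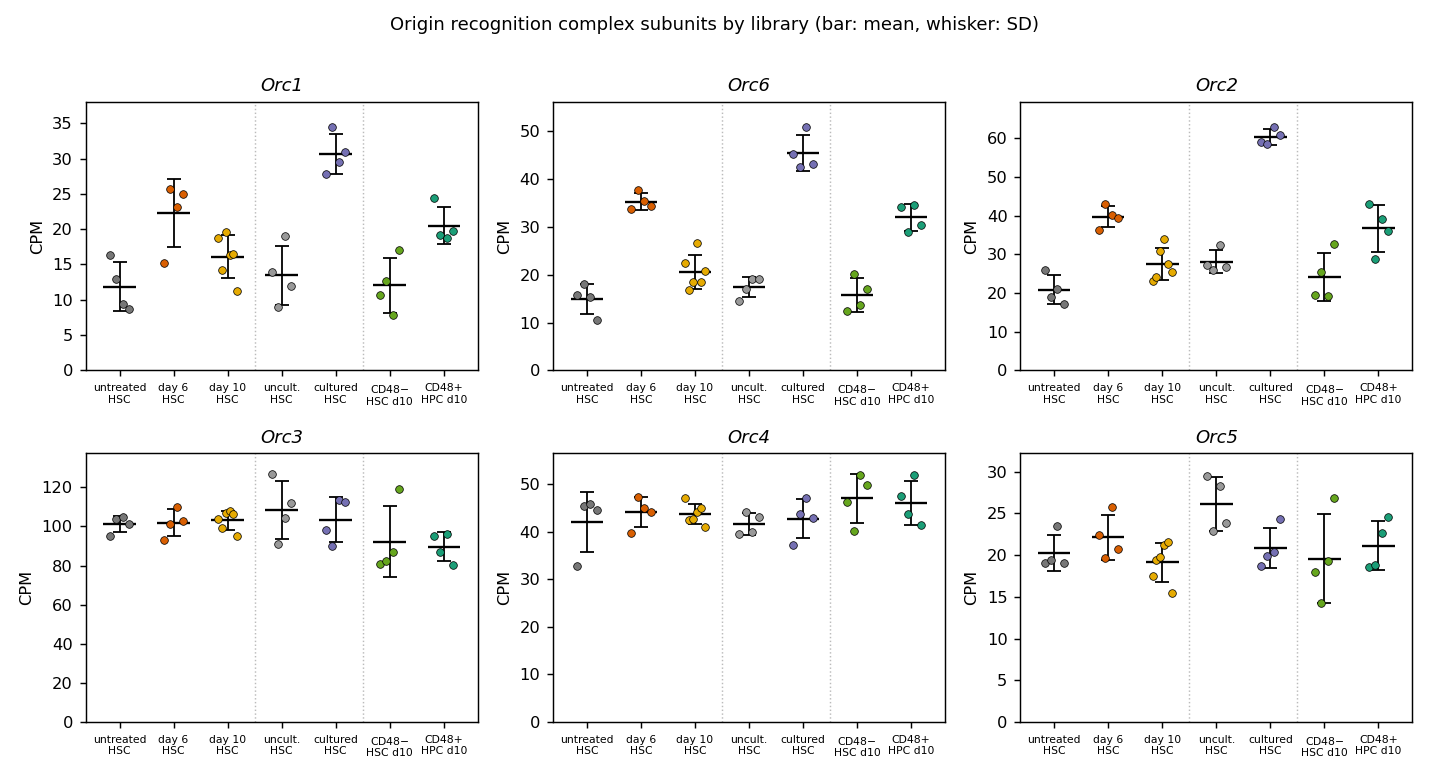
CPM of the 6 ORC subunits (vertical axes, each from 0) in each library (points) by group, with mean (bar) and SD (whisker). Orc1, Orc6 and Orc2 in the upper row stand higher at day 6, after culture and in CD48+ HPCs. Orc3, Orc4 and Orc5 in the lower row had no called rise there. Mean Orc5 runs from 19.2 CPM at day 10 to 26.1 CPM in uncultured HSCs.

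All 3 genes of the licensing group, the inhibitor included, rose. Cdc6, the ATPase that recruits the MCM ring to ORC, read 22.2, 14.4, 7.04 and 10.2 CPM in untreated HSCs and 41.9, 62.8, 39.9 and 62.04 CPM at day 6. The groups did not overlap, and the log2 rise was 1.93 ± 0.28 (adjusted p = 4.33e-05). Cdt1, its partner in loading, went from 46.97, 47.8, 27.98 and 36.2 to 100.4, 114, 97.1 and 121 CPM, a rise of 1.44 ± 0.19. Gmnn, the inhibitor of Cdt1, went from 7.75, 9.33, 6.86 and 3.72 to 23.2, 32.9, 25.3 and 26.9 CPM, a rise of 1.97 ± 0.22. Every day 6 library lay above every untreated library for all 3 genes.

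The helicase rose as a whole. All 6 MCM ring genes passed, with log2 rises between 1.09 (Mcm7) and 1.81 (Mcm5). Mcm5 read 164, 191, 164 and 161 CPM untreated and 521, 650.1, 528 and 688 CPM at day 6, far apart, with a rise of 1.81 ± 0.15 (adjusted p = 4.24e-07). Mcm2, the ring subunit that also handles histones, read 185, 188, 163 and 165 and 452, 585, 511 and 610.2 CPM, a rise of 1.62 ± 0.14. Of the 6 CMG partners, Mcm10, which binds the helicase as it starts to unwind, had the largest rise of all 53 genes. It read 27.4, 17.02, 14.3 and 8.74 CPM untreated and 93.1, 96.8, 78.9 and 96.4 CPM at day 6, a log2 rise of 2.44 ± 0.28 (adjusted p = 5.01e-06). Cdc45, the helicase cofactor, rose by 2.03 ± 0.20, from 20.3 ± 7.21 to 83.3 ± 14.97 CPM, but none of its reads were counted as unique, and it has 2 entries. Of the GINS genes, Gins1 rose by 1.81 ± 0.32 (from 3.38 ± 1.13 to 11.8 ± 2.96 CPM) and Gins4 by 0.48 ± 0.17 (from 11.8 ± 1.74 to 16.5 ± 2.35 CPM). The firing kinase rose in both parts, Cdc7 by 1.74 ± 0.16 and Dbf4 by 1.79 ± 0.16. Mcm8, a relative of the ring genes with a role in recombination, rose by 1.31 ± 0.25.

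The polymerase and clamp groups had lower median rises than the licensing group, as a description with no test between roles and not true of every gene. The median log2 rise was 1.18 for polymerase alpha-primase, 1.03 for delta, 1.07 for epsilon and 1.08 for the clamp and its loader. Pola1, the catalytic subunit of the polymerase that starts each strand, rose by 1.25 ± 0.14 and Prim1, the primase that makes its RNA primer, by 1.51 ± 0.19. Pold1, the lagging-strand polymerase, read 139.8, 142, 114 and 121 CPM untreated and 231, 287, 234 and 301 CPM at day 6, a rise of 1.03 ± 0.11. Pole, the leading-strand polymerase, read 95.8, 124, 109 and 104 and 312, 327, 274 and 346 CPM, a rise of 1.54 ± 0.11. Both sets of libraries stood clear of each other. Pcna, the sliding clamp, read 129, 105, 85.6 and 96.7 CPM untreated and 185, 233, 195 and 268 CPM at day 6, a rise of 1.08 ± 0.14. Only 45.3% of its exon reads mapped uniquely, and by its intron reads the log2 difference was -0.23 and not past the threshold. In the clamp loader, Rfc1 rose by 0.70 ± 0.09, Rfc2 by 0.66 ± 0.09 and Rfc3 by 1.08 ± 0.16, with Rfc5 highest at 1.55 ± 0.15. Rpa1, the large subunit of the protein that coats single strands, rose by 1.18 ± 0.11. Fen1 and Lig1, which trim and join lagging-strand fragments, rose by 1.56 ± 0.19 and 1.42 ± 0.18. By intron reads the difference of Fen1 was 0.16 (adjusted p = 0.778).

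Chromatin assembly and fork genes closed the series. Chaf1b, a subunit of the CAF-1 histone chaperone, read 77.05, 66.3, 86.5 and 88.5 CPM untreated and 98.8, 112, 108 and 125 CPM at day 6, a rise of 0.48 ± 0.09, the smallest of its role group. Asf1b, a histone H3-H4 chaperone, read 26.4, 28.6, 11.5 and 9.17 and 45.6, 54.5, 48.6 and 60.3 CPM, a rise of 1.47 ± 0.28. The 4 untreated libraries were spread widely for this gene, yet all lay below day 6. Clspn, the checkpoint mediator claspin, rose by 1.72 ± 0.24, and Timeless and Tipin, the pair that steadies the fork and aids cohesion, by 1.55 ± 0.19 and 1.91 ± 0.25.

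Other genes of the pathway moved mostly the same way. Of 25 other replication genes, 23 were higher and 1 lower. The largest rises were those of Pclaf, a Pcna-binding factor (2.32 ± 0.30, from 10.995 ± 3.97 to 54.6 ± 12.7 CPM), and Top2a, the topoisomerase that untangles copied DNA (2.24 ± 0.30), and the gene that fell was Pold4, the small accessory subunit of polymerase delta (-0.75 ± 0.13, from 29.4 ± 1.56 to 17.5 ± 1.71 CPM). Cohesin and cohesion establishment genes were more mixed, with 10 of 17 higher and 3 lower. Cdca5 (sororin) rose by 1.99 ± 0.35 and Esco2, the S-phase cohesin acetyltransferase, by 1.68 ± 0.30, while the cohesin loader genes Mau2 and Nipbl fell by 0.33 ± 0.06 and 0.29 ± 0.07. Leaving out the libraries high in other cells' markers gave 50 members higher again, against 47.8% of all genes called in either direction. By intron reads, 39 members were higher, against 27.1% of all genes called in either direction. The 11 that did not pass by intron reads were Orc1, Mcm7, Gins2, Gins4, Pold2, Pole3, Pcna, Rfc3, Rfc4, Rpa3 and Fen1. At day 6 all 10 macrophage markers were called higher, from sums of 43.0 to 62.4 CPM untreated to 50.9 to 600.2 CPM, and 10 of 11 erythroid markers lower, and their part in the members' counts was not tested.

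**Figure D3:**
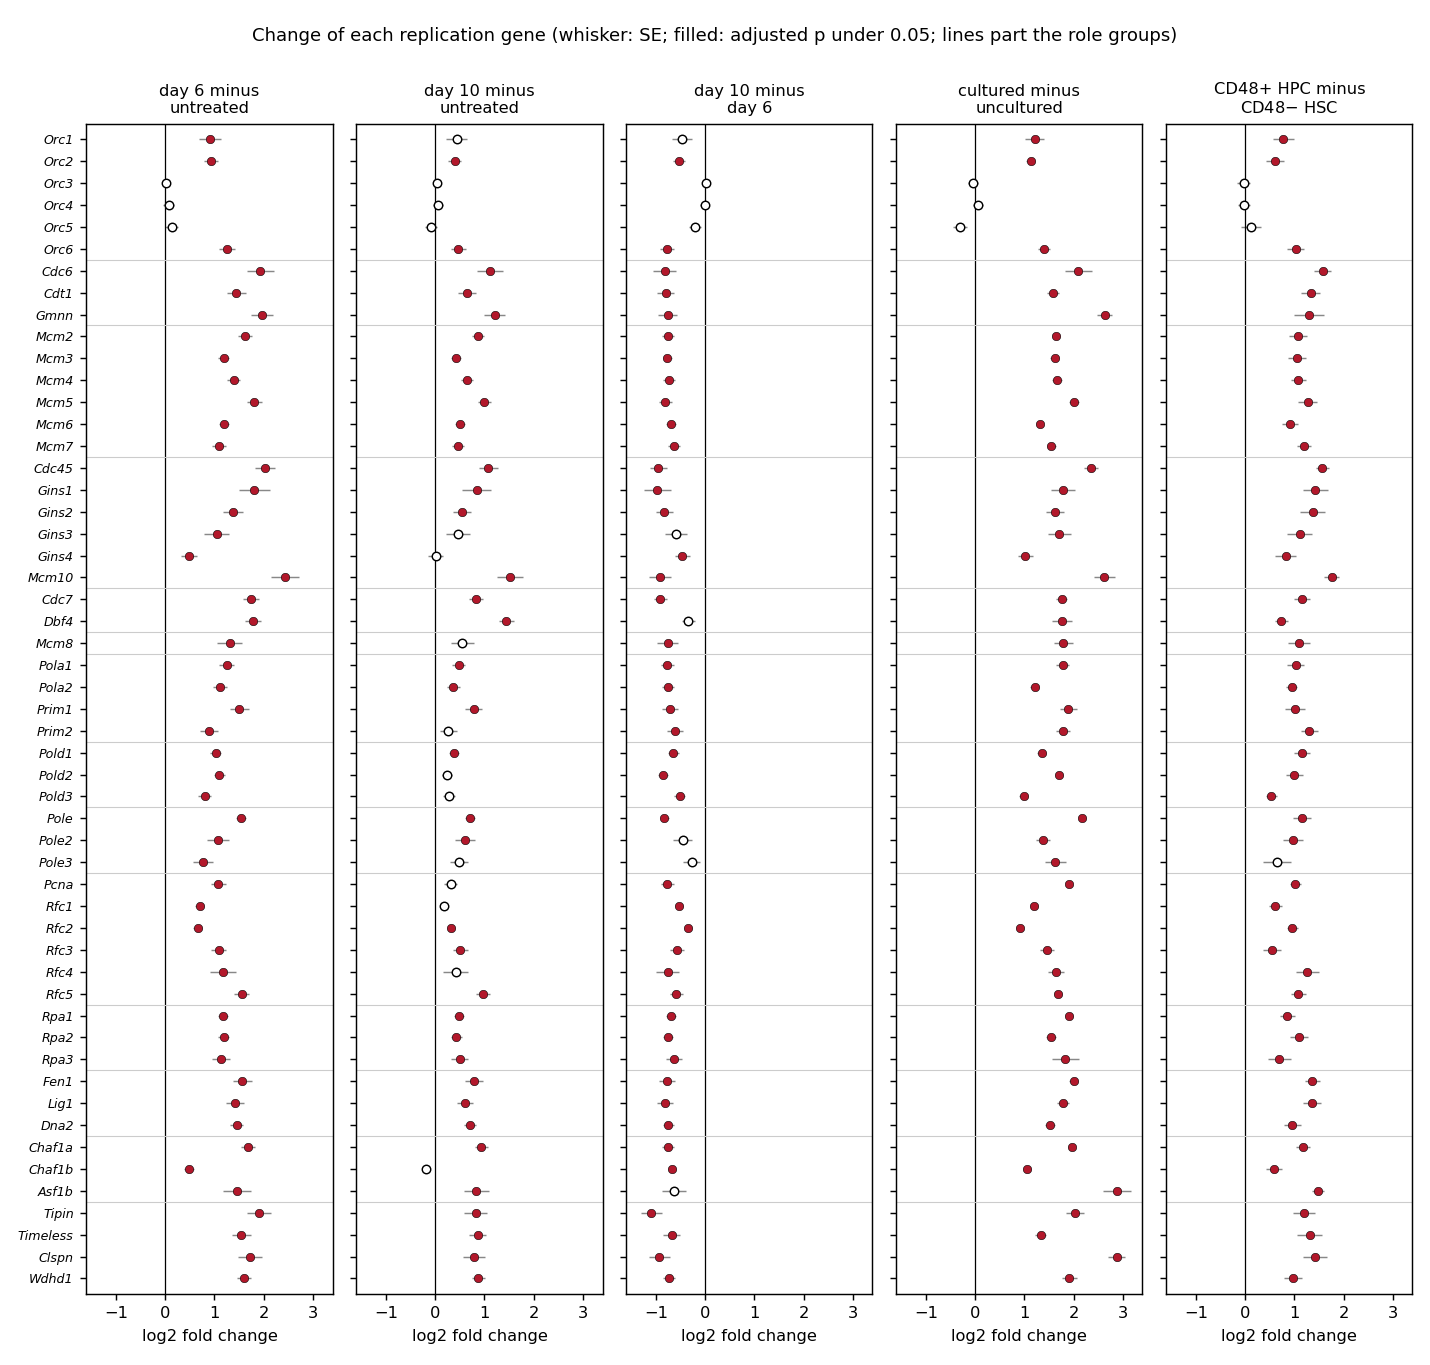
Log2 fold change (horizontal axis) of each of the 53 genes (rows, parted by role) in the 5 comparisons, with SE (whiskers). Filled points passed an adjusted p of 0.05; Orc3, Orc4 and Orc5 are open in all 5 panels, and 44 genes are filled, all below 0, in the panel of day 10 minus day 6.

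At day 10 after 5-FU, 38 of the 53 genes were still higher than in untreated HSCs and none was lower, against 19.9% of all genes called higher and 18.1% lower. Only 6 passed with at least a 2-fold rise (3.92% of all genes), and the median log2 difference of the members was 0.51 (all genes, -0.0043). This comparison shares its controls with that of day 6. The largest rises were those of Mcm10, Dbf4, Gmnn and Cdc6. The 15 genes that did not pass included 4 of 6 ORC subunits, Gins3, Gins4, Mcm8, Prim2, Pold2, Pold3, Pole3, Pcna, Rfc1, Rfc4 and Chaf1b. These results concern the first experiment alone. Day 10 CD48- HSCs of the CD48 experiment summed to 2168 to 3549 CPM over the 53 genes. Untreated HSCs summed to 2693 to 3143 CPM and the day 10 HSCs tested here to 3440 to 4864 CPM. The CD48 experiment has no untreated group of its own, and its difference from untreated HSCs was not tested.

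Mcm10 ranged from 27.2 to 61.9 (median 51.7) CPM over the 6 libraries, against 27.4, 17.02, 14.3 and 8.74 CPM untreated. The lowest day 10 library lay within the untreated range, and the log2 rise was 1.52 ± 0.26 (adjusted p = 0.000375). Dbf4, the activating subunit of the firing kinase, ranged from 22.2 to 34.3 (median 29.9) CPM, all above the untreated 11.8, 12.6, 9.64 and 9.17 CPM, a rise of 1.45 ± 0.15 (adjusted p = 7.3e-06). Its catalytic partner Cdc7 rose by 0.83 ± 0.15. In licensing, Cdc6 rose by 1.11 ± 0.26, Cdt1 by 0.64 ± 0.18 and Gmnn by 1.21 ± 0.21. Gmnn ranged from 12.5 to 19.2 (median 15.6) CPM, above all untreated libraries. Orc1 had a log2 difference of 0.44 ± 0.21 (adjusted p = 0.113) and Orc4 of 0.06 ± 0.10 (adjusted p = 0.685), neither past the threshold. Orc1 passed as higher without untreated replicate 1 (0.63, adjusted p = 0.0373), and Orc4 by intron reads (0.28, adjusted p = 0.0295).

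The MCM ring was higher in all 6 genes, with no overlap between groups for any of them. Such a separation was seen in 19 members in all (11.9% of all genes). Mcm5 ranged from 248 to 418 (median 358) CPM, a rise of 1.00 ± 0.14, and Mcm2 from 244 to 382 (median 334) CPM, a rise of 0.87 ± 0.13. Cdc45 rose by 1.08 ± 0.19. Gins1 rose by 0.84 ± 0.30 (adjusted p = 0.0346), but did not pass with unique reads (adjusted p = 0.0532), with only the 2 groups fitted (0.061), with the replicate block (0.195) or without any one of untreated replicates 1, 2 and 4 and day 10 replicates 1, 4, 5 and 6 (0.0555 to 0.111). Among polymerase genes Pole rose by 0.71 ± 0.10, Prim1 by 0.78 ± 0.18, Pola1 by 0.48 ± 0.13 and Pold1 by 0.38 ± 0.11. In the clamp group, Rfc3 rose by 0.51 ± 0.15, while Pcna differed by 0.31 ± 0.13 (adjusted p = 0.0736) and Rfc1 by 0.18 ± 0.08 (adjusted p = 0.0929). Pcna passed as higher with DESeq2 (0.0491), with all 30 libraries in 1 fit (0.0327) and without untreated replicate 1 or day 10 replicate 2 or 3 (0.0239 to 0.0417). Without the libraries high in other cells' markers Pcna (0.0415) and Rfc1 (0.0407) passed, and Rfc1 also without day 10 replicate 3 (0.0490). By intron reads Pcna differed by -0.31 and did not pass. The strand-handling genes Rpa1, Fen1 and Lig1 rose by 0.48 ± 0.10, 0.79 ± 0.18 and 0.61 ± 0.17.

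Chaf1b was the single member of the chromatin assembly group that did not pass. It ranged from 67.2 to 74.02 (median 69.6) CPM against 77.05, 66.3, 86.5 and 88.5 CPM untreated, a log2 difference of -0.19 ± 0.09 (adjusted p = 0.102). Asf1b rose by 0.84 ± 0.26, a call lost without untreated replicate 3 or 4 (adjusted p 0.0607 to 0.0706), Clspn by 0.79 ± 0.22 and Timeless by 0.86 ± 0.18. Of the other replication genes 18 of 25 were higher and none lower, led by Top2a (1.81 ± 0.28) and Ticrr, a factor of origin firing (1.54 ± 0.14). Of the cohesin genes 6 of 17 were higher, Cdca5 by 1.47 ± 0.33 and Esco2 by 1.01 ± 0.28, and Stag2, a cohesin subunit, fell by 0.19 ± 0.07. By intron reads 20 members were higher, 17 of them among the 38, against 18.8% of all genes called in either direction. Of the genes named above, Cdc6, Cdt1, Gmnn, Mcm2, Prim1, Pold1, Rfc3, Rpa1, Fen1 and Asf1b did not pass by intron reads, with log2 differences between 0.09 (Fen1) and 0.54 (Asf1b). With the replicate block Pola1 (adjusted p = 0.0629) and Rfc3 (0.0929) did not pass. Without the libraries high in other cells' markers the count was 39, against 37.5% of all genes called in either direction.

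Between day 6 and day 10, 44 of the 53 genes fell and none rose, against 15.9% of all genes called lower and 14.7% higher. The median log2 difference was -0.74 (all genes, -0.02), and 1 gene, Tipin, fell at least 2-fold (1.33% of all genes). Libraries of the 2 days did not overlap for 43 members (12.1% of all genes). The 9 that did not pass were Orc1, Orc3, Orc4, Orc5, Gins3, Dbf4, Pole2, Pole3 and Asf1b.

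Tipin read 23.6, 25.8, 35.1 and 37.9 CPM at day 6 and ranged from 8.15 to 17.5 (median 15.1) CPM at day 10, with every day 10 library below every day 6 library and a log2 difference of -1.09 ± 0.21 (adjusted p = 0.00142). Gins1 (-0.97 ± 0.27), Cdc45 (-0.95 ± 0.17) and Clspn (-0.93 ± 0.20) followed. The licensing genes fell by like amounts, Cdc6 by 0.82 ± 0.24, Cdt1 by 0.80 ± 0.17 and Gmnn by 0.76 ± 0.19, as did the ring genes Mcm2 and Mcm5, by 0.75 ± 0.12 and 0.81 ± 0.13. The parts of the firing kinase differed in call. Cdc7 fell by 0.91 ± 0.14, from 77.3, 95.3, 83.5 and 111 CPM to a range from 36.1 to 59.96 (median 49.3) CPM. Dbf4 read 32.1, 38.7, 43.4 and 34.7 CPM at day 6 and ranged from 22.2 to 34.3 (median 29.9) CPM at day 10. These overlapped, and the log2 difference of -0.34 ± 0.13 did not pass (adjusted p = 0.0659). Dbf4 did pass as lower without day 10 replicate 1 (-0.42, adjusted p = 0.0334) or day 10 replicate 6 (-0.41, adjusted p = 0.0346). Whether Cdc7 and Dbf4 differed from each other was not tested.

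Of the polymerase genes all 4 of alpha-primase and all 3 of delta fell, but 1 of 3 of epsilon did. Pole fell by 0.83 ± 0.09, Pola1 by 0.77 ± 0.13, Prim1 by 0.72 ± 0.16 and Pold1 by 0.64 ± 0.10. Pcna fell by 0.77 ± 0.13, Rfc1 by 0.52 ± 0.08 and Rfc3 by 0.57 ± 0.14, so all 6 clamp and loader genes were lower. Rpa1 fell by 0.69 ± 0.10, Fen1 by 0.78 ± 0.17 and Lig1 by 0.81 ± 0.16. Chaf1b fell by 0.67 ± 0.09 and Timeless by 0.68 ± 0.17, while Asf1b differed by -0.63 ± 0.24 with an adjusted p of 0.0619. Asf1b passed as lower with DESeq2 (adjusted p = 0.0409), with all 30 libraries in 1 fit (0.0487) and with only the 2 groups fitted (0.00552). It also passed without any one of untreated replicates 2, 3 and 4 and day 10 replicate 1 (0.0272 to 0.0497). In the ORC, Orc1 differed by -0.47 ± 0.20 (adjusted p = 0.0857) and Orc4 by -0.01 ± 0.10 (adjusted p = 0.938). Orc1 passed as lower without day 6 replicate 1 (-0.61, adjusted p = 0.0325) or without the libraries high in other cells' markers (-0.68, adjusted p = 0.0268).

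Of the 25 other replication genes 18 fell and 1 rose. Exo1, a flap and repair exonuclease, fell by 1.00 ± 0.20 and Dtl, which directs destruction of Cdt1, by 0.86 ± 0.13, while Pold4 rose by 0.76 ± 0.12. Of the cohesin genes 4 of 17 fell, led by the alternative clamp loader subunits Dscc1 (-1.08 ± 0.22) and Chtf18 (-0.88 ± 0.22), and 2 rose, Nipbl by 0.33 ± 0.06 and Mau2 by 0.23 ± 0.06. Without the libraries high in other cells' markers 44 members were again lower, against 24.1% of all genes called in either direction. Cdc6 did not pass without day 6 replicate 2 or 4 (adjusted p 0.0621 to 0.0653), nor Gins1 without day 6 replicate 4 (0.0548). By intron reads 35 members were lower, against 16.95% of all genes called in either direction. Gins1, Pcna, Rfc3, Fen1 (-0.07) and Clspn were among those that did not pass by intron reads.

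HSCs cultured for 1 day had the highest summed level in the series, set beside the other experiments with no test. Of the 53 genes, 50 were higher in cultured than in uncultured HSCs and none was lower, against 33.8% of all 12386 genes called higher and 33.8% lower. The genes that did not pass were again Orc3, Orc4 and Orc5. Rises of at least 2-fold were seen in 48 members (12% of all genes), the libraries did not overlap for any of the 50 (30.9% of all genes), and the median log2 change was 1.66 (all genes, -0.01). By role the median was 0.59 for ORC, 2.10 for licensing, 1.63 for the MCM ring, 1.78 for polymerase alpha-primase, 1.35 for delta, 1.63 for epsilon, 1.55 for the clamp group and 1.97 for fork protection and cohesion establishment.

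Asf1b and Clspn had the largest rises. Asf1b read 14.2, 4.74, 18.4 and 6.67 CPM uncultured and 83.1, 77.8, 82.2 and 73.7 CPM cultured, a log2 rise of 2.88 ± 0.29 (adjusted p = 1.91e-06). Clspn read 19.2, 15.1, 20.97 and 9.84 and 118, 112, 134 and 105 CPM, a rise of 2.87 ± 0.18 (adjusted p = 2.8e-08). No cultured library came near the uncultured range, and the uncultured libraries varied more in proportion. Gmnn read 5.87, 5.77, 8.24 and 5.72 and 41.1, 37.2, 39.7 and 38.8 CPM, a rise of 2.63 ± 0.15, and Mcm10 rose by 2.63 ± 0.21.

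In the ORC, Orc1 rose by 1.21 ± 0.19, Orc2 by 1.13 ± 0.10 and Orc6 by 1.40 ± 0.12. Orc4 read 39.5, 44.1, 39.98 and 43.02 CPM uncultured and 37.1, 43.6, 47.1 and 42.9 CPM cultured, overlapping ranges with a log2 difference of 0.06 ± 0.10 (adjusted p = 0.628). Orc3 differed by -0.04 ± 0.11 (adjusted p = 0.745). Orc5 read 29.5, 22.95, 28.3 and 23.8 and 18.7, 19.9, 20.3 and 24.3 CPM, a log2 difference of -0.30 ± 0.14 (adjusted p = 0.0684). It passed as lower by unique exon reads, by intron reads, and when either uncultured replicate 2 or cultured replicate 4 was left out. Orc5 and Orc3 were the only members of the 53 whose log2 estimate lay below 0 in culture.

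Cdc6 rose by 2.10 ± 0.27, from 12.8, 7.26, 23.1 and 8.89 to 51.3, 49.3, 57.9 and 61.2 CPM, and Cdt1 by 1.57 ± 0.12, from 48.02, 45.9, 71.1 and 48.6 to 156, 149, 162 and 159 CPM. Mcm5 read 146, 130.01, 199 and 163 and 651, 631, 631 and 618 CPM, a rise of 2.01 ± 0.11, and Mcm2 rose by 1.64 ± 0.08. The MCM ring summed to 2918 to 2938 CPM in the 4 cultured libraries, a narrow range beside 842.1 to 1127 CPM uncultured. Cdc45 rose by 2.35 ± 0.13, Gins1 by 1.79 ± 0.23, Cdc7 by 1.76 ± 0.11 and Dbf4 by 1.77 ± 0.20.

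Pole had the smallest adjusted p of the 53 genes in culture. It read 91.1, 81.3, 101 and 91.3 CPM uncultured and 408, 402, 406 and 402 CPM cultured, a rise of 2.18 ± 0.07 (adjusted p = 4.65e-10). Pcna read 91.4, 87.1, 103 and 92.7 and 344, 336, 363 and 339 CPM, a rise of 1.91 ± 0.07, though its intron reads gave a log2 difference of -0.19 that did not pass. Pola1 rose by 1.78 ± 0.13, Prim1 by 1.90 ± 0.18, Pold1 by 1.35 ± 0.09, Rfc1 by 1.20 ± 0.08, Rfc3 by 1.46 ± 0.14 and Rpa1 by 1.91 ± 0.08. Rpa3, the smallest RPA subunit, rose by 1.83 ± 0.27 from only 4.21 ± 1.70 CPM. Fen1, Lig1, Chaf1b and Timeless rose by 2.00 ± 0.09, 1.79 ± 0.12, 1.06 ± 0.08 and 1.33 ± 0.10.

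Among other replication genes 23 of 25 were higher and 1 lower. Pclaf rose by 2.65 ± 0.19 and Uhrf1, which brings the maintenance DNA methyltransferase to copied DNA, by 2.48 ± 0.11, while Pold4 fell by 1.33 ± 0.18. Of the cohesin genes 12 of 17 were higher and 3 lower. The pair Esco2 and Esco1 moved in opposite directions: Esco2 rose by 3.27 ± 0.35, from 4.86 ± 3.41 to 45.4 ± 7.08 CPM, and Esco1 fell by 0.49 ± 0.11, from 38.8 ± 3.53 to 27.1 ± 1.71 CPM. Cdca5 rose by 2.92 ± 0.17 and Mau2 fell by 0.56 ± 0.07. The count of members was 50 higher without uncultured replicates 1 and 3, against 64.7% of all genes called in either direction. By intron reads 47 were higher and Orc5 lower, against 47.4% of all genes called in either direction.

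The change at day 6 and the change in culture were compared directly in a fit of 22 libraries. For 10 of the 53 genes the day 6 change was smaller than the culture change and for none was it larger, against 7.08% of all 13229 genes in that direction and 9.15% in the other. They were Asf1b (-1.38 ± 0.45), Clspn (-1.13 ± 0.33), Prim2 (-0.88 ± 0.25), Pole3 (-0.85 ± 0.29), Pcna (-0.80 ± 0.17), Rpa1 (-0.71 ± 0.14), Pole (-0.61 ± 0.13), Pold2 (-0.58 ± 0.14), Chaf1b (-0.55 ± 0.12) and Rfc1 (-0.47 ± 0.12), all as day 6 change minus culture change on the log2 scale. Of the polymerase, clamp and RPA genes, 7 of 19 passed. Of the 24 genes of ORC, licensing, MCM ring, CMG partners, kinase and Mcm8 none did, which is near the 7.08% share of all genes. Gmnn, 1 of these 24, did pass when untreated replicate 4 was left out (-0.85, adjusted p = 0.0174). Whether the roles differed was not tested.

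The calls of Asf1b and Pole3 were lost when single libraries were left out. Asf1b (adjusted p = 0.038) did not pass when untreated replicate 1 or 2, day 6 replicate 1, 2 or 3, uncultured replicate 2 or 4 or any cultured replicate was left out (0.0543 to 0.105), with the replicate block (0.0575) or by intron reads (0.447). Pole3 (adjusted p = 0.0477) did not pass in 17 fits that left out 1 library (0.0521 to 0.111), with no filter (0.0764), with the block (0.0771), in the fit of all 30 libraries (0.0768) or without the libraries high in other cells' markers (0.122). Clspn was lost without untreated replicate 2, uncultured replicate 4 or cultured replicate 3 (0.0541 to 0.0669), and Prim2 without the libraries high in other cells' markers (0.0541). Pole had a log2 rise of 1.54 ± 0.11 at day 6 and 2.18 ± 0.07 in culture (adjusted p of the difference = 0.0033), and Pcna of 1.08 ± 0.14 and 1.91 ± 0.07 (adjusted p of the difference = 0.00309). For the helicase the differences did not pass: Mcm2 0.00 ± 0.17, Mcm5 -0.18 ± 0.20, Cdc45 -0.29 ± 0.26 and Gins1 0.05 ± 0.39. The licensing genes gave -0.14 ± 0.42 (Cdc6), -0.10 ± 0.25 (Cdt1) and -0.64 ± 0.28 (Gmnn), the kinase 0.01 ± 0.21 (Cdc7) and 0.05 ± 0.27 (Dbf4), and the ORC -0.28 ± 0.31 (Orc1) and 0.04 ± 0.14 (Orc4). For Pola1, Prim1, Pold1 and Rfc3 the differences were -0.51 ± 0.20, -0.36 ± 0.27, -0.30 ± 0.15 and -0.35 ± 0.22, and for Fen1, Lig1 and Timeless -0.41 ± 0.24, -0.35 ± 0.24 and 0.24 ± 0.24. Their adjusted p did not pass either, which does not show equal change. Pola1 did pass when uncultured replicate 3 was left out (-0.66, adjusted p = 0.0255). Among the other replication genes only Rbbp4, a histone-binding subunit of CAF-1, passed (-0.37 ± 0.11), and of the cohesin genes 4 passed, with Esco2 (-1.56 ± 0.50) and Chtf18 (-1.13 ± 0.36) the largest. By intron reads 1 of the 10, Rpa1, passed, and Orc5 passed in the other direction, against 8.54% of all genes called in either direction.

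**Figure D4:**
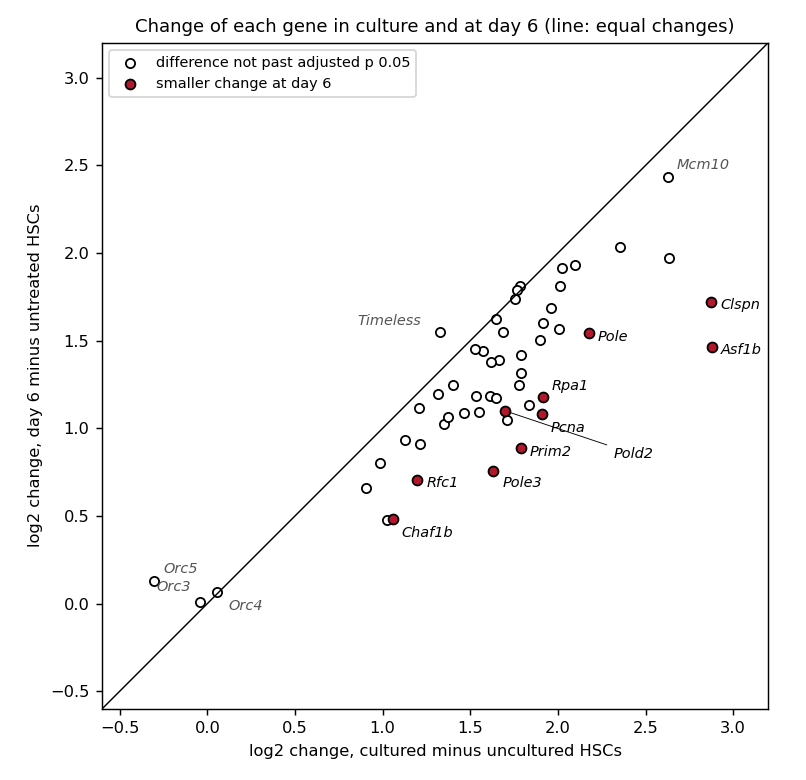
Log2 change in culture (horizontal axis) and at day 6 after 5-FU (vertical axis) of the 53 genes, each against its own controls; the line marks equal changes. The 10 filled and named genes, from Asf1b to Rfc1, had a smaller change at day 6 in the test of the difference, and Orc3, Orc4 and Orc5 lie near 0 on the vertical axis.

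CD48 parted the cells taken at day 10 after 5-FU. In CD48+ HPCs 49 of the 53 genes were higher than in CD48- HSCs and none was lower, against 14% of all 12719 genes called higher and 12.5% lower. The 4 that did not pass were Orc3, Orc4, Orc5 and Pole3. Rises of at least 2-fold were seen in 32 members (3.37% of all genes) and separation of the libraries in 46 (13.5%), with a median log2 difference of 1.08 (all genes, -0.01). By role the median was 0.36 for ORC, 1.33 for licensing, 1.08 for the MCM ring, 1.40 for CMG partners and Mcm10, and 1.35 for Okazaki fragment maturation. CD48 was itself a sorting marker, and none of the members was. Introns held 60.5 to 65.8% of reads on genes with an exon in CD48- HSCs and 57.5 to 61.5% in CD48+ HPCs, and the part of this in the counts was not tested. Macrophage markers were called higher in CD48+ HPCs for 7 of 10, from sums of 85.1 to 357.5 CPM to 180.7 to 1289 CPM, and granulocyte markers for 4 of 5 tested, from 39.9 to 105 CPM to 125.6 to 480.7 CPM, which was not tested against the members either.

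Mcm10 read 23.8, 36.3, 21.8 and 27.4 CPM in CD48- HSCs and 107, 86.6, 88.995 and 87.1 CPM in CD48+ HPCs, a log2 difference of 1.76 ± 0.15 (adjusted p = 5.07e-05). The groups were far apart. Cdc6 (1.58 ± 0.17), Cdc45 (1.57 ± 0.13) and Asf1b (1.48 ± 0.12) had the next largest rises. Asf1b read 16.03, 22.3, 17.9 and 19.4 and 53.5, 54.4, 51.2 and 51.6 CPM, with little spread in either group. Cdt1 rose by 1.33 ± 0.19, from 51.2, 71.3, 35.1 and 51.7 to 150.5, 131, 103 and 139.99 CPM, and Gmnn by 1.29 ± 0.30, from 6.96, 10.7, 4.86 and 16.9 to 26.2, 20.7, 25.4 and 23.4 CPM. CD48- HSC replicate 4 stood closest to the HPCs for Gmnn but not for Cdt1.

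Orc1 rose by 0.78 ± 0.22 (adjusted p = 0.0228), from 10.6, 12.7, 7.83 and 17.1 to 24.4, 19.2, 18.8 and 19.7 CPM. Orc4 read 46.3, 40.2, 51.8 and 49.8 and 47.4, 43.7, 51.99 and 41.4 CPM, a log2 difference of -0.02 ± 0.12 (adjusted p = 0.921), and Orc3 and Orc5 differed by -0.03 ± 0.13 and 0.12 ± 0.19 (adjusted p = 0.882 and 0.685). Mcm2 rose by 1.08 ± 0.19 and Mcm5 by 1.27 ± 0.19, the latter from 174, 235, 113 and 225 to 533, 402, 423 and 437 CPM. CD48- HSC replicate 3, which held the most erythroid marker reads, was also the lowest library for Mcm5. Gins1, Cdc7 and Dbf4 rose by 1.42 ± 0.26, 1.16 ± 0.16 and 0.74 ± 0.13.

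Pole rose by 1.16 ± 0.17, Pold1 by 1.16 ± 0.17, Pola1 by 1.02 ± 0.17 and Prim1 by 1.01 ± 0.20. Pole3, a small histone-fold subunit of polymerase epsilon, read 5.89, 8.98, 5.46 and 3.33 and 10.8, 8.53, 8.23 and 9.78 CPM, which overlapped, with a difference of 0.66 ± 0.29 (adjusted p = 0.11). It passed as higher with all 30 libraries in 1 fit (adjusted p = 0.029) and without CD48- HSC replicate 2 (0.0300). Pcna rose by 1.02 ± 0.11, Rfc1 by 0.62 ± 0.13 and Rpa1 by 0.86 ± 0.16. Rfc3 was near the threshold, with a rise of 0.54 ± 0.18 (adjusted p = 0.0478) and overlapping libraries. It did not pass without any one of CD48- HSC replicates 1, 3 and 4 and CD48+ HPC replicates 1, 3 and 4 (0.0631 to 0.147), or with the replicate block (0.0928), RLE factors (0.0502) or no filter (0.0506). Fen1 and Lig1 rose by 1.37 ± 0.16 and 1.35 ± 0.19, Chaf1b by 0.59 ± 0.16, Clspn by 1.42 ± 0.24 and Timeless by 1.31 ± 0.24.

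Of the other replication genes 14 of 25 were higher and none lower, led by Pclaf (1.76 ± 0.20) and Recql4, a helicase needed for initiation (1.59 ± 0.22). Of the cohesin genes 9 of 17 were higher and none lower, led by Esco2 (1.52 ± 0.25) and Cdca5 (1.37 ± 0.18). Without CD48- HSC replicate 3 and CD48+ HPC replicate 3, 44 members were higher, against 17.8% of all genes called in either direction. In that fit Orc1 (adjusted p = 0.0547), Rfc3 (0.192) and Chaf1b (0.0586) did not pass. Orc1 was also lost without CD48- HSC replicate 1 or CD48+ HPC replicate 1 (0.0647 to 0.0744), and Chaf1b without CD48- HSC replicate 1, 3 or 4 or CD48+ HPC replicate 1 (0.0507 to 0.0707). By intron reads the count was 37, against 11.9% of all genes called in either direction. Orc1, Pcna, Rfc3 and Fen1 (0.29) were among those that did not pass by intron reads.

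The remaining members rose at day 6 and in culture, as most genes of their complexes did. At day 10 Gins3, Prim2, Pold2, Pold3 and Rfc4 among them did not pass, as given above, while other genes of their complexes did. In the MCM ring, Mcm3 rose by 1.19 ± 0.11 at day 6, 1.61 ± 0.09 in culture and 1.06 ± 0.18 in CD48+ HPCs, and Mcm4, the subunit lowest per length in all 7 groups, by 1.39 ± 0.14, 1.66 ± 0.09 and 1.08 ± 0.15. Mcm6 and Mcm7 rose by 1.20 ± 0.10 and 1.09 ± 0.14 at day 6 and by 1.32 ± 0.07 and 1.55 ± 0.09 in culture. Gins2, a subunit of the GINS complex, rose by 1.38 ± 0.20 at day 6 and 1.62 ± 0.18 in culture, and Gins3 by 1.05 ± 0.26 and 1.71 ± 0.23.

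Of the accessory polymerase subunits, Pola2 rose by 1.12 ± 0.14 at day 6 and 1.21 ± 0.08 in culture, Prim2, the primase partner of Prim1, by 0.89 ± 0.18 and 1.79 ± 0.14, and Pole2 by 1.07 ± 0.22 and 1.38 ± 0.14. Pold2 read 48.9, 38.9, 42.5 and 43.02 CPM uncultured and 139.9, 137, 139.6 and 137 CPM cultured, a rise of 1.70 ± 0.08, against 1.10 ± 0.11 at day 6. Pold3 had the smallest rise in culture among the 3 delta genes (0.98 ± 0.09). Rfc4, the loader subunit lowest per length, rose by 1.17 ± 0.27 and 1.65 ± 0.17, and Rpa2 by 1.19 ± 0.11 and 1.54 ± 0.10. Dna2, a nuclease that cuts long flaps, rose by 1.45 ± 0.13 at day 6 and 1.53 ± 0.10 in culture. Chaf1a, the large CAF-1 subunit, rose by 1.68 ± 0.14 at day 6 and 1.96 ± 0.07 in culture, where its partner Chaf1b rose by 0.48 ± 0.09 and 1.06 ± 0.08. Wdhd1, which links the helicase to polymerase alpha, rose by 1.60 ± 0.14, 1.92 ± 0.15 and, in CD48+ HPCs, 0.98 ± 0.19.

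The ratio of Cdt1 to its inhibitor Gmnn was followed in each library, because scaling to library size cancels in it. Its log2 value was 2.59, 2.35, 2.01 and 3.26 in untreated HSCs and 2.11, 1.80, 1.94 and 2.17 at day 6. It lay between 1.44 and 2.40 at day 10. Uncultured HSCs gave 3.01, 2.97, 3.10 and 3.07 and cultured HSCs 1.93, 2.00, 2.02 and 2.03, which did not overlap. CD48- HSCs gave 2.87, 2.74, 2.84 and 1.61 and CD48+ HPCs 2.52, 2.66, 2.02 and 2.58. By exact two-sided permutation tests, the culture difference of -1.05 had p = 0.0286, the smallest that 4 against 4 libraries allow, and 0.119 after Benjamini-Hochberg adjustment over 5 comparisons. The day 6 difference of -0.55 had an exact permutation p of 0.0857 (adjusted 0.143) and that of day 10 against untreated, -0.62, of 0.0476 (adjusted 0.119). Day 10 against day 6 gave -0.07 (adjusted exact permutation p = 0.83) and CD48+ HPCs against CD48- HSCs -0.07 (adjusted exact permutation p = 0.83). None of the 5 passed after adjustment, so the ratio is a description here: Gmnn rose more than Cdt1 in point estimate at day 6, at day 10 and in culture.

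**Figure D5:**
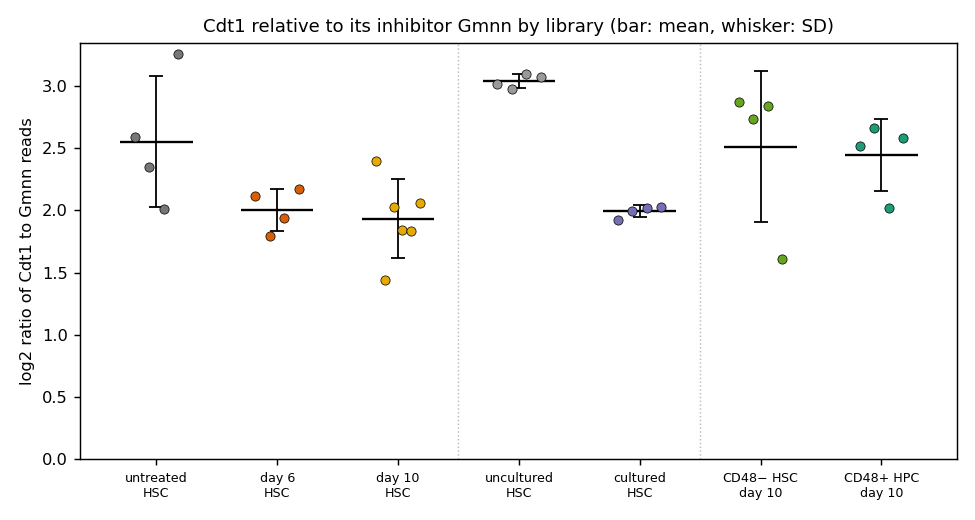
Log2 ratio of Cdt1 to Gmnn exon reads (vertical axis, from 0) in each library (points) by group, with mean (bar) and SD (whisker). The 4 cultured libraries lie between 1.93 and 2.03 and the 4 uncultured between 2.97 and 3.10; in the other experiments the groups overlap.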

How the data were processed

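RNA-seq libraries of 100 sorted cells were prepared with Nextera XT and sequenced on a NextSeq, per the labels' protocols. The authors deposited 1 table per library with exon and intron read counts per gene, in total and for uniquely mapped reads, on build mm10 per the submitters' processing notes. Which aligner and counter were used, and whether counting used strand, is not given in the sources used here. The members and gene lists were chosen with earlier results of these data known.

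Total exon counts were fitted with edgeR 4.0.16 (R 4.3.3; filterByExpr, TMM, group means, quasi-likelihood test), with one fit per experiment: 14 libraries for 5-FU, 8 for culture and 8 for CD48. A fit of 22 libraries compared the day 6 change with the culture change. P-values were adjusted by Benjamini and Hochberg over all tested genes, with a threshold of 0.05. CPM used library sizes scaled by TMM over all 30 libraries. For the log2 ratio of Cdt1 to Gmnn, 0.5 was added to each count. Groups came from the sample labels. The rule for named genes took the same 25 members in every comparison, the 4 with the largest rise and fall among those called, members that did not pass where 5 or fewer, and the 2 largest rises and falls of each other list. Further members named (such as Orc2, Orc6, Gins4, Mcm8, Rfc5 and Rpa3) were chosen after their values were seen.

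Alternatives were RLE size factors, no filter, DESeq2 1.42.0, all libraries in one fit, only the groups compared, unique or intron reads, a replicate block, leaving out each replicate and, added after seeing the data, leaving out 6 libraries high in other cells' markers. The fits were tested on simulated counts. Same-numbered replicates did not deviate together. Sequences are from RefSeq (GRCm38.p6). Tables and figures were made in Python 3.11.15 (pandas 2.3.3, NumPy 2.4.6, matplotlib 3.10.9). Depth was 5208722 to 12243208 exon reads per library, and no 2 libraries of a group agreed within counting noise.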

Additional observations from a re-analysis of the deposited data

Results flagged for a closer look

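Of 287 groups of 4 to 10 values checked, 11 held a library far from the others, where chance alone gives about 1 in 20. CD48- HSC replicate 4 stood apart in 2 of them. Its ORC genes summed to 262.4 CPM, against 187.5 to 198.8 CPM in the other 3 libraries, and its log2 ratio of Cdt1 to Gmnn was 1.61, against 2.74 to 2.87.

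CD48+ HPC replicate 1 stood above the other HPC libraries for Orc1 (24.4 CPM against 18.8 to 19.7), for Pole (293.4 CPM against 236.2 to 244.3), for the polymerase epsilon genes together (328.8 CPM against 267.5 to 271.4) and for chromatin assembly genes together (312.2 CPM against 268.2 to 275.3). Uncultured replicate 3, which also held many erythroid marker reads, was high for Cdt1 (71.1 CPM against 45.9 to 48.6) and for Gmnn (8.24 CPM against 5.72 to 5.87). Among the other groups, cultured replicate 2 was low for the CMG partners and Mcm10 together (278.2 CPM against 303.3 to 305.7), untreated replicate 1 was low for Orc4 (32.7 CPM against 44.6 to 45.8) and untreated replicate 2 was high for Mcm5 (191 CPM against 161.5 to 164.3).

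In tests of a difference between groups, 44 members were lower at day 10 than at day 6, against 15.9% of all genes. A smaller change at day 6 than in culture was called for 10 members, against 7.08% of all genes.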

How the results depend on the processing

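The limits are few libraries per group, 100 cells per library, unknown aligner and strand use, and reads shared with other loci for Pcna and Cdc45. Shallow genes such as Gins1 and Rpa3 rest on as few as 15 reads in a library, so that small differences in them were not detectable at this depth.

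The counts of members called kept their direction under every alternative for total exon reads, apart from Chaf1b and Orc5, each called lower in a few fits that left out 1 replicate. Leaving out 1 replicate at a time gave 49 to 50 members higher at day 6, 30 to 42 higher at day 10 (30 without untreated replicate 4), 39 to 47 lower at day 10 than day 6, 50 to 51 called in culture, 44 to 49 in CD48+ HPCs and 7 to 14 for the difference of changes (7 without untreated replicate 2, 14 without uncultured replicate 3). Members called lower numbered 0 to 1 at day 10 against untreated HSCs (Chaf1b, without untreated replicate 2) and 0 to 1 in culture (Orc5, without uncultured replicate 2 or cultured replicate 4). Unique exon reads gave 1 member lower in culture and intron reads 1, both Orc5. With intron reads 20 members were called at day 10, 20 of them higher, and for the difference of changes 2 were called, 1 higher (Orc5) and 1 lower (Rpa1), against 10 lower. The cause was not tested.

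Same-numbered replicates correlated between -0.18 and 0.11 in their deviations from the group means, and not every library correlated best with its own number. The numbers thus gave no clear sign of a pairing. Correlations this weak cannot exclude that same-numbered libraries came from the same animal, which the labels do not give. With the replicate block the counts were 50 at day 6, 29 at day 10, 41 for day 10 against day 6, 50 in culture, 46 for CD48 and 8 for the difference. The block also turned Orc4 for day 10 against day 6 (0.0078).

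For the log2 ratio of Cdt1 to Gmnn, leaving out 1 replicate gave -0.73 to -0.31 at day 6 (the lowest adjusted exact permutation p, 0.0476, without untreated replicate 3), -0.80 to -0.38 at day 10, -0.16 to 0.029 for day 10 against day 6, -1.07 to -1.02 in culture and -0.37 to 0.075 for CD48.

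Of the named genes' log2 changes under the alternatives, 1565 were labelled as keeping direction and call, 67 as losing and 34 as gaining the call, and 48 as turning sign. Refits that left out 1 replicate entered as the lowest and the highest value per gene and comparison. Both took the most adverse label among those refits, so a value counted here need not itself have turned sign or changed its call. For intron reads the values that turned sign were Pcna at day 6 (-0.23), day 10 (-0.31) and in culture (-0.19), Orc4 for day 10 against day 6 (0.057), Orc5 for CD48 (-0.0059) and, for the difference of changes, Mcm2 (-0.086), Gins1 (-0.36) and Dbf4 (-0.41). Orc4 for CD48 gave 0.0077 with no filter and 0.013 with unique reads. For the difference of changes, RLE factors and DESeq2 gave -0.0068 for Mcm2, and -0.0004 and -0.0005 for Cdc7. An alternative added after the data were seen, without the 6 libraries high in other cells' markers, gave 0.063 for Orc3 in culture and, for the difference, -0.025 (Mcm2), -0.16 (Gins1), -0.11 (Cdc7) and -0.068 (Dbf4), with 50, 39, 44, 50, 44 and 8 members called in the 6 comparisons. Leaving out 1 replicate spanned 0 for Orc4 at day 6 (-0.042 to 0.11), at day 10 (-0.052 to 0.096), for day 10 against day 6 (-0.065 to 0.026) and for CD48 (-0.091 to 0.038), for Orc3 at day 6 (-0.034 to 0.045), in culture (-0.11 to 0.037) and for CD48 (-0.088 to 0.11), and for Orc5 for CD48 (-0.0098 to 0.31). For the difference it spanned 0 for Orc4 (-0.061 to 0.099), Cdc6 (-0.58 to 0.22), Mcm2 (-0.075 to 0.080), Gins1 (-0.11 to 0.27), Cdc7 (-0.078 to 0.084) and Dbf4 (-0.17 to 0.23).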

Other observations

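HSCs sorted as CD48- cells 10 days after 5-FU were sequenced in both the 5-FU and the CD48 experiment. These were separate experiments, so their values are only set side by side, with no test. The 53 genes summed to 3440 to 4864 CPM in the 6 libraries of the first and to 2168 to 3549 CPM in the 4 libraries of the second. Mcm10 stood at 48.5 ± 12.1 CPM (SD, n = 6) in the first and 27.4 ± 6.41 CPM (SD, n = 4) in the second, and Dbf4 at 29.5 ± 4.60 and 25.01 ± 2.83 CPM. HSCs of the untreated and the uncultured group, the controls of 2 experiments, summed to 2693 to 3143 and 2441 to 3124 CPM.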
